A study of Arabidopsis thaliana with 12 samples.

Results

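AT3G15450 and AT5G19120 are 2 of the 13286 Arabidopsis thaliana genes measured here by a probe set assigned to 1 gene, and each was measured by a single probe set. They were chosen on their measured signals: both were raised by salt in the genotypes Ws and Col, and both were already high in the genotype Col(gl) without salt. The values that chose them are therefore given as a description, without a test, and tests are given for comparisons the choice did not make, although these share arrays with it. The gene table used here gives both as protein-coding, without a symbol.

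Leaf RNA came from soil-grown plants 20 days after sowing, watered for 6 days either without NaCl or with NaCl raised in steps to 100 mM. Wassilewskija (Ws) and Columbia (Col) are widely used accessions, and the labels do not say how Col(gl) differs from Col. There were 2 Affymetrix arrays, described as biological replicates, for every genotype at either salt level, which gives 6 groups and 12 arrays. The labels record the raw scans of Col arrays as also deposited elsewhere, and do not say how many plants were pooled for an array. Signals are log2 values, so a difference of 1 is a 2-fold difference, and 1 probe set's signal is not compared with another's. In leaf RNA, fewer cells of a type and less RNA per cell cannot be told apart.

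As background from general knowledge rather than from these files, AT3G15450 belongs to a family of proteins named after aluminium-induced proteins, and its transcript is widely used as a marker of sugar shortage in plants. AT5G19120 encodes a protein of the aspartyl protease type. In plant leaves, the kinase SnRK1 is active when sugar and energy are short and the kinase TOR when they are plentiful. Genes of amino acid breakdown and autophagy are typical of the low-energy state.

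The array controls set some libraries apart. Array medians lay between 6.15 and 6.38. Lower quartiles lay between 4.19 and 4.42, below the lowest signal of AT3G15450 (6.60) and of AT5G19120 (6.21) on any array. Replicate 1 of salted Ws and of salted Col had low plastid-encoded signal, with medians over 69 probe sets of 8.73 and 9.48. Their replicate 2 arrays read 11.22 and 11.37. Unsalted Col(gl) read 10.34 and 10.35, and the other 6 arrays 11.39 to 11.78. The actin control probes of the same replicate 1 arrays differed by 2.84 and 2.67 between the 3′ and 5′ ends, against at most 1.92 elsewhere. RCA (AT2G39730), the Rubisco activase of green leaf cells, was the 1 leaf mesophyll marker of 8 with a named probe set, and its group means lay between 13.62 and 14.04. The root marker EXPA7 (AT1G12560) lay between 4.26 and 4.82 and the seed marker AT3G22490 between 3.88 and 4.26, both near the lower quartile. FMA (AT3G24140), the 1 guard cell marker of 4 with a named probe set, lay between 6.75 and 7.18. AT1G64370 was the 1 phloem marker of 3 with a named probe set. It changed with salt by -0.75 ± 0.20 in Ws (log2, ± SE, limma, adjusted p = 0.031) and by -1.68 ± 0.20 in Col (adjusted p = 0.00023). Over all probe sets 7.45% were called lower with salt in Ws and 21.1% in Col. The part of any of these in the results below was not tested.

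AT3G15450 read 6.96 and 6.60 on the unsalted Ws arrays and 10.68 and 10.33 on the salted ones (replicate 1, then replicate 2). In Col it read 6.88 and 7.15 without salt and 11.30 and 11.68 with salt. In Col(gl) it read 12.66 and 12.69 without salt and 13.01 and 12.85 with salt. All 4 Col(gl) arrays were thus above all 4 salted arrays of Ws and Col, and these were above the 4 unsalted arrays of Ws and Col. The fitted salt difference of AT3G15450 was 3.72 ± 0.18 in Ws (log2, ± SE, n = 2 per group, 13.2-fold) and 4.47 ± 0.18 in Col (22.2-fold). Without salt it was higher in Col(gl) than in Col by 5.66 ± 0.18 (50.5-fold) and than in Ws by 5.90 ± 0.18 (59.6-fold).

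AT5G19120 showed the same split of the arrays. It read 6.47 and 6.92 on the unsalted and 10.35 and 10.90 on the salted Ws arrays. In Col it read 6.21 and 6.36 without salt and 10.36 and 10.81 with salt. In Col(gl) it read 11.59 and 11.55 without salt and 11.50 and 11.50 with salt. The 4 Col(gl) arrays were above the 4 salted arrays of Ws and Col, and these were above the 4 unsalted ones, with no overlap. The salt difference of AT5G19120 was 3.94 ± 0.22 in Ws (15.3-fold) and 4.30 ± 0.22 in Col (19.7-fold). Without salt Col(gl) exceeded Col by 5.28 ± 0.22 (39-fold) and Ws by 4.88 ± 0.22 (29.4-fold). Without replicate 1 of salted Ws the difference in Ws was 4.21, and without replicate 2 it was 3.66.

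**Figure D1:**
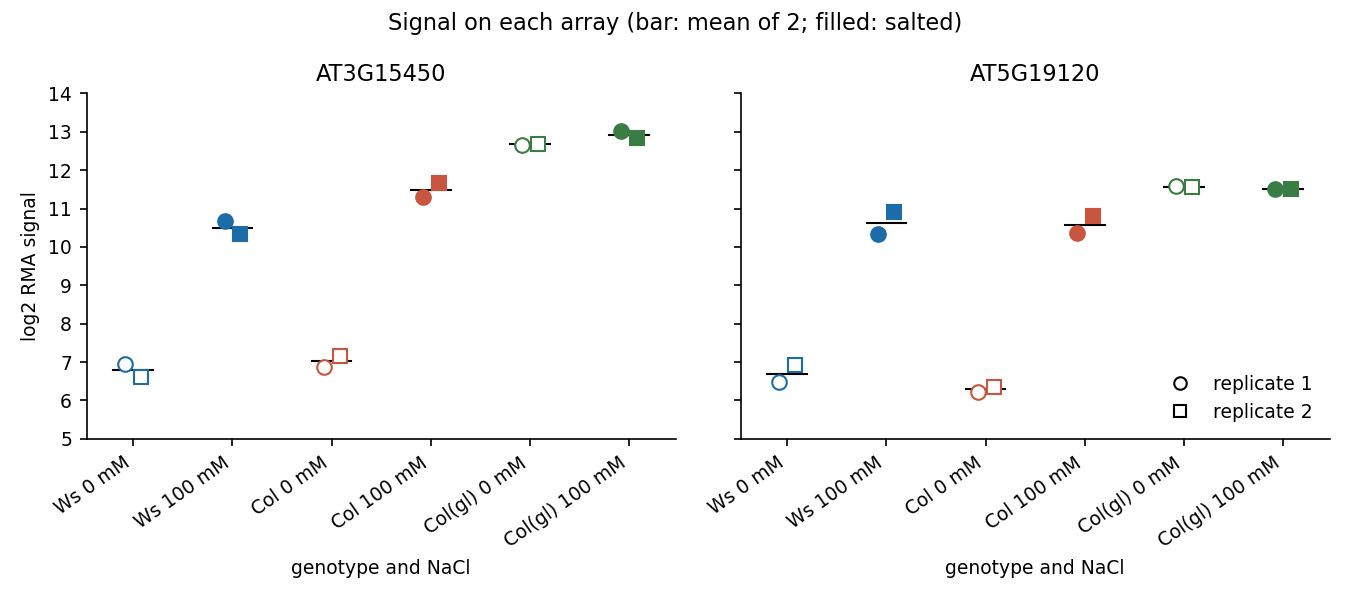
Log2 signal (y axis) of AT3G15450 (left) and AT5G19120 (right) on each of the 12 arrays, by genotype and NaCl (x axis). Circles are replicate 1, squares replicate 2, filled symbols salted plants and bars the mean of 2 arrays. The unsalted Ws and Col arrays lie between 6.21 and 7.15, the salted ones between 10.33 and 11.68, and the Col(gl) arrays between 11.50 and 13.01.

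The order of the group means differed between the genes in 3 pairs of neighbouring groups. AT3G15450 ran from salted Col(gl) (12.93 ± 0.11, mean ± SD, n = 2) and unsalted Col(gl) (12.68 ± 0.02) through salted Col (11.49 ± 0.27) and salted Ws (10.50 ± 0.25) to unsalted Col (7.02 ± 0.19) and unsalted Ws (6.78 ± 0.26). The arrays of the last 2 groups overlapped. AT5G19120 ran from unsalted Col(gl) (11.57 ± 0.02) and salted Col(gl) (11.50 ± 0.00) through salted Ws (10.63 ± 0.39) and salted Col (10.59 ± 0.32) to unsalted Ws (6.69 ± 0.32) and unsalted Col (6.29 ± 0.10). Here the arrays of salted Ws and salted Col overlapped. The gap between neighbouring group means was widest between the lower salted group and the higher unsalted one, at 3.49 for AT3G15450 and 3.89 for AT5G19120.

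The differences that chose the genes stood far up among all 22746 tested probe sets. The salt difference of AT3G15450 was the 27th highest in Ws and the 30th in Col, and its excess in unsalted Col(gl) over unsalted Col the 13th. AT5G19120 took places 23, 38 and 16. A total of 276 probe sets, 125 of them with 1 gene, had all 4 differences of the choice (the salt differences in Ws and Col, and Col(gl) above Col and above Ws without salt) at 2-fold or more. At 4-fold 69 remained and at 8-fold 20, of which 6 had 1 gene. Besides the 2 genes described here these were EXLA1 (AT3G45970), an expansin-like protein, STZ (AT1G27730), a zinc-finger repressor, AT3G15630, and AT5G61590, which the gene table lists under the synonym DEWAX, a repressor of wax synthesis. STZ is named after its values were seen. The smallest of the 4 differences of AT3G15450 was reached in all 4 by 5 probe sets, and that of AT5G19120 by 4.

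Salt in Col(gl), the genotype in which both genes started high, was not used in the choice except for its unsalted arrays. AT3G15450 differed by 0.25 ± 0.18 between salted and unsalted Col(gl) (95% interval -0.16 to 0.67, limma, adjusted p = 0.58) and AT5G19120 by -0.07 ± 0.22 (-0.55 to 0.41, adjusted p = 0.92). Neither was called. Over all probe sets 0.787% were called higher and 0.703% lower in this comparison, 339 in all, and 3377 had an unadjusted p under 0.05. Both salted arrays lay above both unsalted ones for AT3G15450, by at least 0.16, and below them for AT5G19120, by at least 0.05. The intervals do not allow for the choice of a high unsalted level. They end at 0.67 for AT3G15450 and 0.41 for AT5G19120, against differences of 3.72 to 4.47 in the other genotypes, which chose the genes. The response of Col(gl) minus that of Col was thereby -4.22 ± 0.26 for AT3G15450 and -4.37 ± 0.30 for AT5G19120, and minus that of Ws it was -3.47 ± 0.26 and -4.01 ± 0.30. These contain the differences of the choice and are given without a test.

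Unsalted Col(gl) lay above the salted levels of the other genotypes. AT3G15450 was higher in unsalted Col(gl) than in salted Col by 1.19 ± 0.18 (2.28-fold) and than in salted Ws by 2.17 ± 0.18 (4.51-fold). AT5G19120 was higher by 0.98 ± 0.22 (1.98-fold) and 0.94 ± 0.22 (1.92-fold). These are again descriptions.

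At 100 mM, where the salted Col(gl) arrays had no part in the choice, both genes were higher in Col(gl) than in the other genotypes. AT3G15450 exceeded Col by 1.44 ± 0.18 (2.71-fold, limma, adjusted p = 0.00061) and Ws by 2.43 ± 0.18 (5.37-fold, adjusted p = 1.1e-05). AT5G19120 exceeded Col by 0.91 ± 0.22 (1.88-fold, adjusted p = 0.014) and Ws by 0.87 ± 0.22 (1.83-fold, adjusted p = 0.012). Calls were common in both comparisons, with 24.3% of all probe sets called between Col(gl) and Col and 30.8% between Col(gl) and Ws. The salted Ws and Col arrays in these comparisons did take part in the choice.

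The calls of AT3G15450 between Col(gl) and the other genotypes at 100 mM held in all 18 alternatives, and those of AT5G19120 did not. Its excess over Col was no longer called without replicate 1 of salted Col (0.69, adjusted p = 0.098) or without replicate 1 or 2 of salted Col(gl) (0.91 each, adjusted p = 0.072 and 0.068). Its excess over Ws was no longer called without replicate 1 of salted Ws (0.60, adjusted p = 0.074), without replicate 1 or 2 of salted Col(gl) (0.87 each, adjusted p = 0.064 and 0.061), or with only the groups compared in the fit (0.87, adjusted p = 0.055).

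**Figure D2:**
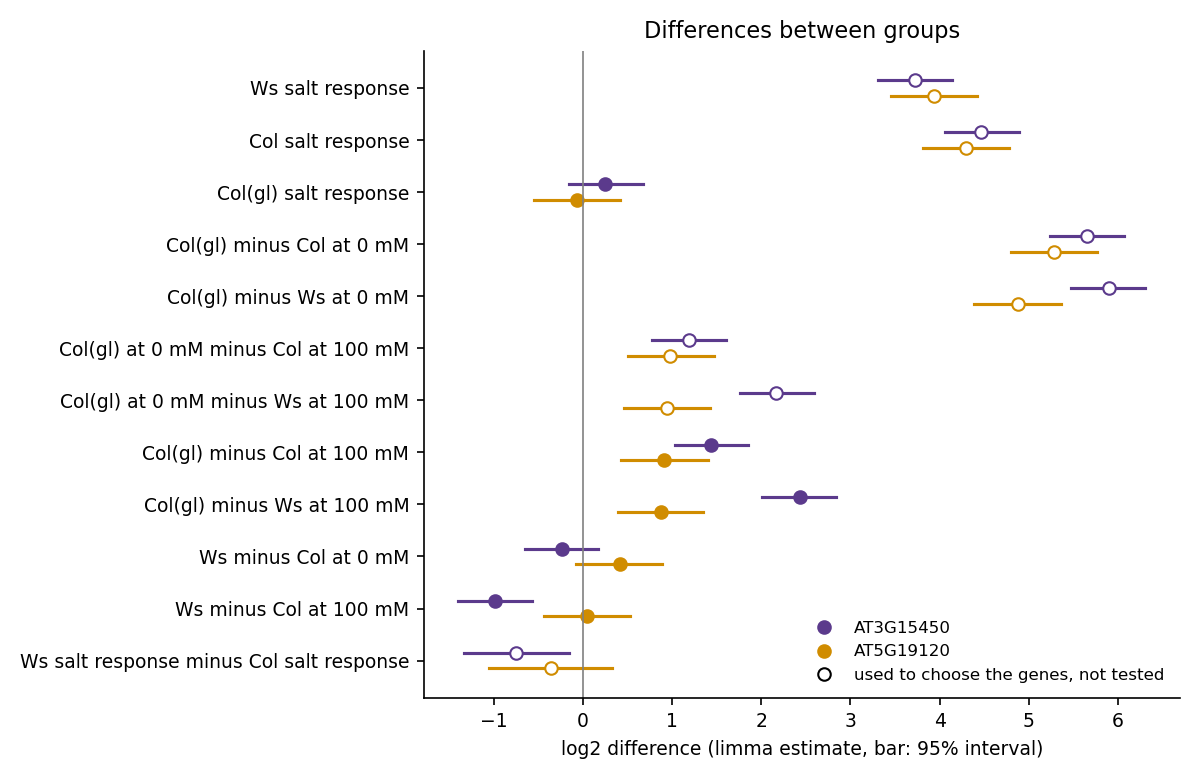
Fitted log2 differences (x axis) of AT3G15450 (purple) and AT5G19120 (orange) for 12 comparisons of groups (y axis), with 95% intervals as bars. Open points carry no test, since they chose the genes or, in the bottom row, are made of differences that did. The salt differences lie at 3.72 or above in Ws and Col, and the intervals of both Col(gl) salt differences span 0.

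With salt, at 100 mM, AT3G15450 differed between Ws and Col, on arrays that all took part in the choice of the genes. There it was lower in Ws than in Col by 1.98-fold (-0.99 ± 0.18, limma, adjusted p = 0.007), and both Ws arrays lay below both Col arrays. With only these 4 arrays in the fit the call was lost (adjusted p = 0.16). In this comparison 12.7% of all probe sets were called, and the p-values of the 2 genes do not allow for the choice. AT5G19120 differed by 0.04 ± 0.22 between salted Ws and salted Col (95% interval -0.44 to 0.53, adjusted p = 0.94).

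Without salt neither gene was called between Ws and Col, where 15.8% of all probe sets were. These arrays, too, all took part in the choice, for which the p-values and intervals do not allow. AT3G15450 differed by -0.24 ± 0.18 (95% interval -0.65 to 0.17, adjusted p = 0.44) and AT5G19120 by 0.41 ± 0.22 (-0.08 to 0.89, adjusted p = 0.25). The salt response of Ws minus that of Col was -0.75 ± 0.26 for AT3G15450 and -0.36 ± 0.30 for AT5G19120. It is made of the salt differences of the choice and is given without a test, and 4.66% of all probe sets were called in that comparison. Without replicate 1 of salted Ws and of salted Col, the arrays low in plastid-encoded signal, it was -1.12 ± 0.24 for AT3G15450.

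The relatives of AT3G15450 did not all share its course. The list of 4 relatives was drawn from general knowledge of the family, not from sequences compared here, and all 4 were measured. In Ws salt 2 were higher and 1 lower, with a median of 0.42, against 9.16% higher and 7.45% lower over all probe sets and a median of -0.03. In Col 1 was higher and 2 lower, with a median of -0.10, against 16.4% and 21.1% and a median of -0.13. In unsalted Col(gl) against unsalted Col 2 were higher and 0 lower (limma), with a median of 0.28, against 10.3% and 13.5% and a median of -0.04. In Col(gl) salt 1 was higher and 0 lower, with a median of 0.22, against 0.787% and 0.703% and a median of -0.02.

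AT4G27450 came nearest among these relatives. It read 6.20 and 6.33 on unsalted and 9.89 and 9.61 on salted Ws arrays, and 6.22 and 6.22 on unsalted and 8.34 and 7.80 on salted Col arrays. On Col(gl) arrays it read 8.09 and 7.99 without salt and 9.24 and 9.22 with salt. Unlike AT3G15450, it was highest in salted Ws, and its unsalted Col(gl) level lay among its salted Col arrays. It rose with salt by 3.49 ± 0.17 in Ws (limma, adjusted p = 4.1e-06), by 1.85 ± 0.17 in Col (adjusted p = 5.1e-05) and by 1.19 ± 0.17 in Col(gl) (adjusted p = 0.011), the last a call that was lost when any of the 4 arrays of Col(gl) was left out. Without salt it was higher in Col(gl) than in Col by 1.82 ± 0.17 (adjusted p = 3.6e-05).

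The other 3 relatives moved less. AILP1 (AT5G19140) rose by 0.71 ± 0.16 with salt in Ws (limma, adjusted p = 0.017) and changed by -0.56 ± 0.16 in Col (adjusted p = 0.024), and each call ended in 4 of the 18 alternatives. AILP1 was no longer called without replicate 1 of the salted group, at 0.53 in Ws (adjusted p = 0.094) and -0.35 in Col (adjusted p = 0.16). AT5G43830 was called only in unsalted Col(gl) against unsalted Col (0.48 ± 0.11, adjusted p = 0.0086, ended in 2 alternatives), and its group means stayed between 10.53 and 11.14. AT3G22850 changed by -0.34 ± 0.10 in Ws (adjusted p = 0.045) and -0.30 ± 0.10 in Col (adjusted p = 0.043), calls that ended in 12 and 11 alternatives.

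Of 7 relatives of AT5G19120, listed in the same way, 3 had a named probe set: AT5G19100 and AT5G19110, the loci numbered just before it, and AT5G48430. Salt in Ws gave 1 higher and salt in Col 1 higher, while Col(gl) salt and unsalted Col(gl) against Col gave 0 by limma. The shares of all probe sets called higher were 9.16% in Ws, 16.4% in Col, 0.787% in Col(gl) salt and 10.3% in unsalted Col(gl) against Col, so nothing is read from counts over 3 genes. AT5G19100 read 8.34 and 6.12 on the salted Ws arrays, against 5.33 and 5.43 without salt. Its higher value stood on the array with low plastid-encoded signal, and its rise of 1.85 ± 0.53 (adjusted p = 0.042) ended in 11 of the 18 alternatives. Without that array AT5G19100 differed by 0.75 (adjusted p = 0.032), and without replicate 2 by 2.96. AT5G19110 read 8.32 and 6.62 on the salted Col arrays, again with replicate 1 higher, against 5.35 and 5.16 without salt. It rose by 2.21 ± 0.48 (adjusted p = 0.006), a call that held in all 18. The size of the AT5G19110 difference was 1.36 without replicate 1 of salted Col and 3.06 without replicate 2. AT5G48430 lay under the lower quartile in every group.

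Neither of these neighbours of AT5G19120 was high in unsalted Col(gl). AT5G19100 read 5.68 and 5.64 there and AT5G19110 read 5.62 and 5.57, which differed from unsalted Col by 0.03 ± 0.53 and 0.34 ± 0.48 and were not called. AT5G19130, on its other side, was called in none of the 4 comparisons, its group means lying between 7.20 and 7.65. AILP1, a relative of AT3G15450, is the next gene after that.

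On the chromosome of AT3G15450 the annotated span of AT3G15460 overlaps that of AT3G15450, and whether the probes of either gene also detect the other was not tested. AT3G15460 rose by 0.96 ± 0.16 with salt in Col (limma, adjusted p = 0.0014) and differed by 0.49 ± 0.16 in Ws (adjusted p = 0.062). It did not share the high Col(gl) level: its group mean was 6.59 in unsalted Col(gl) and 6.64 in unsalted Col. AT3G15440, on the other side, lay under the lower quartile in every group. AT3G15430 changed by -0.46 in Ws (adjusted p = 0.03) and -0.51 in Col (adjusted p = 0.0098), and AT3G15470 by -0.42 (adjusted p = 0.023) and -0.32 (adjusted p = 0.035), each a call that ended in 2 to 9 alternatives. AT3G15430, without replicate 1 of the salted group, was at -0.36 in Ws (adjusted p = 0.16) and -0.43 in Col (adjusted p = 0.064), and AT3G15470 at -0.36 (adjusted p = 0.12) and -0.31 (adjusted p = 0.12), with no call left. Of the 8 neighbours of both genes, salt raised 2 and lowered 2 in Ws and raised 2 and lowered 3 in Col. None was called in Col(gl) salt or in unsalted Col(gl) against Col. Over all probe sets 9.16% were higher and 7.45% lower in Ws, 16.4% and 21.1% in Col, 0.787% and 0.703% in Col(gl) salt, and 10.3% and 13.5% in unsalted Col(gl) against Col.

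**Figure D3:**
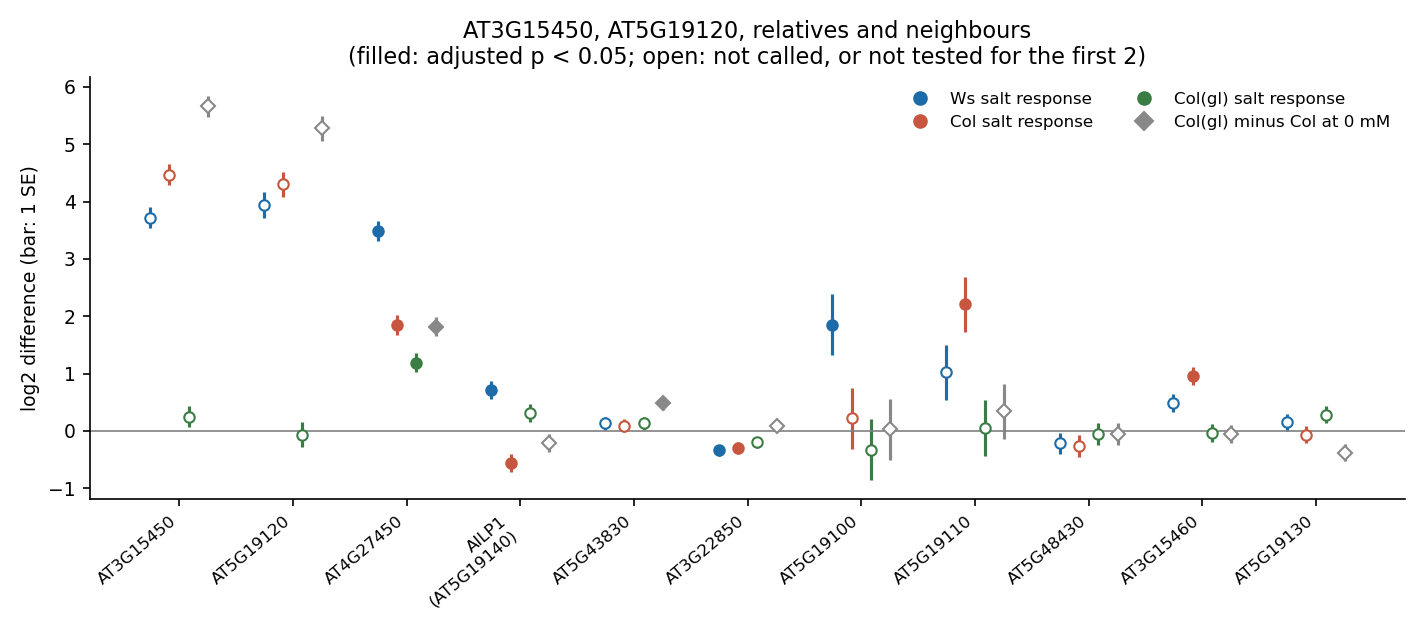
Fitted log2 differences (y axis, bars 1 SE) of AT3G15450, AT5G19120, their measured relatives and selected chromosome neighbours (x axis) for the salt responses of Ws, Col and Col(gl) and for Col(gl) minus Col at 0 mM. Filled symbols passed an adjusted p of 0.05, and open ones did not or, for the first 2 genes, were not tested unless they show the Col(gl) salt response. AT4G27450 has all 4 differences above 0, and its Col(gl) minus Col difference of 1.82 is far below the 5.66 of AT3G15450.

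The courses of the 2 genes over the arrays were close, with r = 0.975 and rho = 0.839 over 12 arrays. The value is a description, since both genes were chosen for the same pattern over these groups, which made a high r likely in advance. The arrays also share their normalization. Most of r comes from the gap between the 4 unsalted Ws and Col arrays and the other 8. Over those other 8 arrays r was 0.839 and rho 0.619. Without replicate 1 of salted Ws and Col r was 0.976 and rho 0.782 over 10 arrays, and with both sets left out r was 0.850 and rho 0.371 over 6.

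Among 6555 probe sets whose group means spanned at least 1 log2 unit and whose mean signal was above the lower quartile, 116 had r over 0.95 with AT3G15450 and 60 with AT5G19120. Below -0.95 lay 113 with AT3G15450 and 26 with AT5G19120. The gene closest to AT3G15450 was AT5G61590 (DEWAX, r = 0.994), followed by AT3G15630 (0.988), AT5G25210 (0.987), AT5G11070 (0.987) and AT2G16660 (0.986). AT4G20830, AT5G15640, EXLA1, AT3G59080 and AT2G25735 followed, with r from 0.985 down to 0.977. The closest to AT5G19120 was EXLA1 (r = 0.997), followed by AT5G61590 (0.990), AT2G16660 (0.984), AT5G11070 (0.983) and AT4G31000 (0.982). AT5G65660, AT3G19680, AT3G15450 itself, AT5G54170 and EXO (AT4G08950), a cell expansion protein, had r from 0.982 down to 0.971. Of 16 different genes, 4 stood among the 10 closest to both: AT5G61590, EXLA1, AT2G16660 and AT5G11070.

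The likeness lies in the shape and not in the size of the course, and the shapes were not alike in every group. In Col(gl), EXO ran from 11.98 without salt to 10.85 with salt, and AT3G19680 from 10.94 to 10.18. EXLA1 ran from 4.91 in unsalted Col to 11.63 in unsalted Col(gl), whereas AT5G15640 ran from 6.86 to 8.32 in the same groups. AT3G15630 started at 4.60 in unsalted Col, near the lower quartile, and reached 11.33 in unsalted Col(gl). Over the 8 arrays without unsalted Ws and Col, AT5G61590 kept r = 0.972 with AT3G15450 and EXLA1 kept 0.986 with AT5G19120, while AT3G19680 dropped to 0.641 with AT5G19120. After quantile renormalization 8 of the 10 genes closest to AT3G15450 and 10 of those closest to AT5G19120 were named again, and without replicate 1 of salted Ws and Col 7 and 6.

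**Figure D4:**
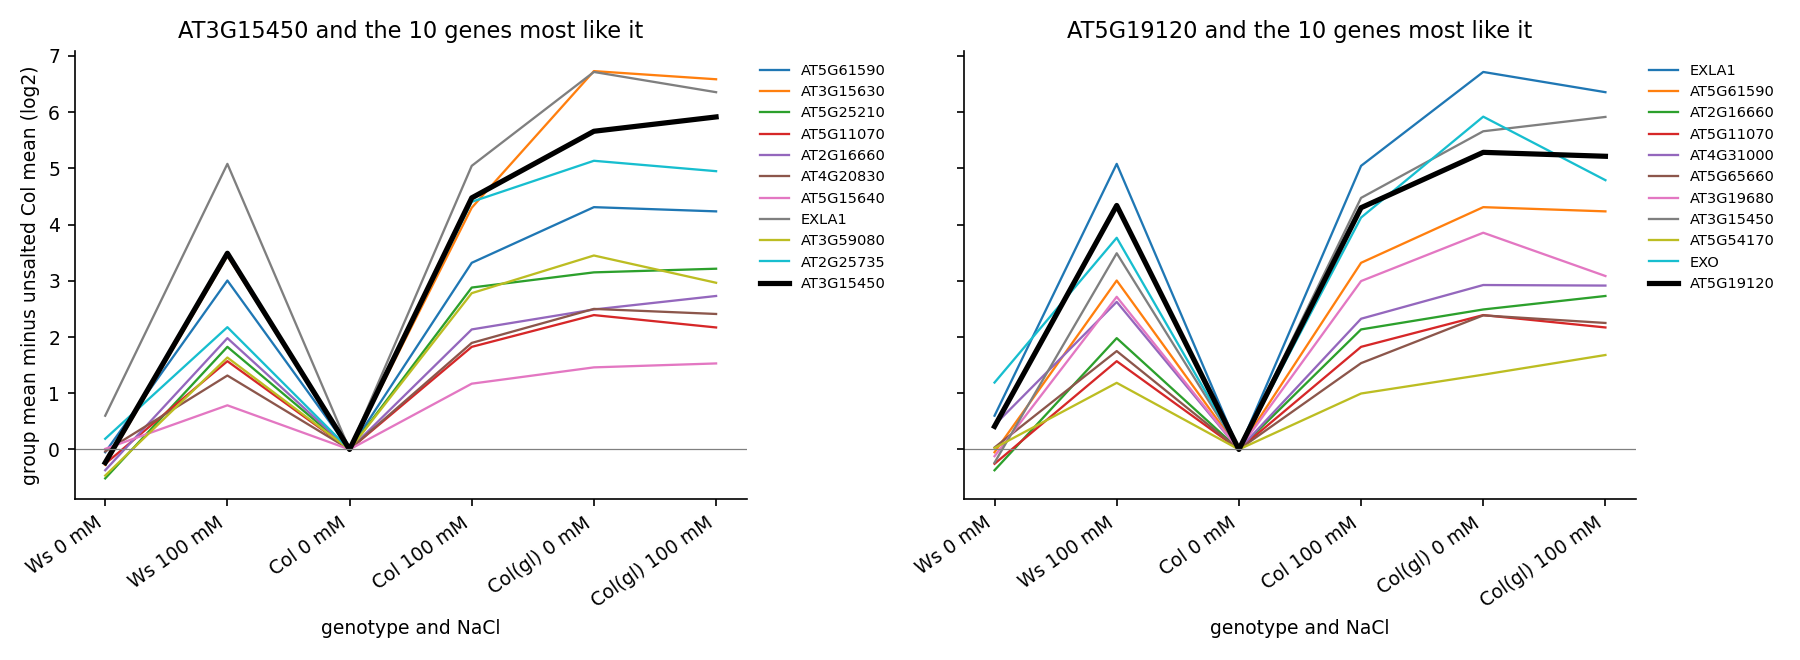
Group means minus the unsalted Col mean (log2, y axis) in the 6 groups (x axis) for AT3G15450 (left, thick black line), AT5G19120 (right, thick black line) and the 10 genes most like each by Pearson r over 12 arrays (thin lines). Lines join groups only to guide the eye. The thin lines broadly follow the black ones, but some, such as EXO and AT3G19680 in the right panel, fall with salt in Col(gl). Heights in unsalted Col(gl) run from 1.46 for AT5G15640 to 6.73 for AT3G15630 in the left panel.

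Among genes that are typically raised in the low-energy state, some were called in the same comparisons and others were not. Of a list of 37 such genes 8 had a named probe set. Salt in Ws gave 2 higher and 1 lower with a median of 0.20, and salt in Col 3 higher and 1 lower with a median of 0.20. Without salt 4 were higher in Col(gl) than in Col and 0 lower (limma), with a median of 0.41. Between unsalted Ws and unsalted Col, where AT3G15450 and AT5G19120 were not called, 3 were higher in Ws and 1 lower, with a median of 0.18. In that comparison 15.8% of all probe sets were called in either direction. In Col(gl) salt 0 were called in either direction, with a median of 0.34. Over all probe sets 9.16% were higher and 7.45% lower in Ws, 16.4% and 21.1% in Col, 10.3% and 13.5% in unsalted Col(gl) against Col, and 0.787% and 0.703% in Col(gl) salt.

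BZIP53 (AT3G62420), a bZIP transcription factor of the low-energy response, shared part of the course of the 2 genes. Unlike them, it was highest in salted Col, with a mean of 11.15 against 10.88 in unsalted Col(gl). It read 8.48 and 8.83 on unsalted and 10.30 and 10.23 on salted Ws arrays, 9.21 and 9.10 on unsalted and 11.06 and 11.25 on salted Col arrays, and 10.92 and 10.83 on unsalted Col(gl) arrays. It rose with salt by 1.61 ± 0.13 in Ws (limma, adjusted p = 6.9e-05) and by 2.00 ± 0.13 in Col (adjusted p = 7.7e-06), and was higher by 1.72 ± 0.13 in unsalted Col(gl) than in unsalted Col (adjusted p = 1.2e-05). On the salted Col(gl) arrays it read 10.28 and 10.38, below both unsalted ones, and that difference of -0.55 ± 0.13 was not called (adjusted p = 0.081).

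ATG8E (AT2G45170), a ubiquitin-like protein of autophagy, was high on all 4 Col(gl) arrays, at 9.69 and 9.54 without salt and 9.69 and 9.89 with salt. It read 7.15 and 7.35 on unsalted and 8.60 and 8.12 on salted Ws arrays, and 6.58 and 6.24 on unsalted and 7.84 and 7.86 on salted Col arrays. As in AT3G15450 and AT5G19120, the salted arrays of Ws and Col lay between their unsalted arrays and those of Col(gl). It rose with salt by 1.11 ± 0.18 in Ws (limma, adjusted p = 0.0028, lost when the fit held just the 4 Ws arrays) and 1.44 ± 0.18 in Col (adjusted p = 0.00027). Its excess in unsalted Col(gl) over unsalted Col was 3.20 ± 0.18 (adjusted p = 1.5e-06), and its salt difference in Col(gl) 0.18 ± 0.18 (adjusted p = 0.7).

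The remaining low-energy genes moved less. ATL8 (AT1G76410), a RING-type ubiquitin ligase, rose with salt by 0.82 ± 0.20 in Col (limma, adjusted p = 0.011; 0.67 and adjusted p = 0.071 without replicate 1 of salted Col) and was higher by 1.53 ± 0.20 in unsalted Col(gl) than in unsalted Col (adjusted p = 0.00033). MCCA (AT1G03090), a subunit of the leucine-degrading methylcrotonyl-CoA carboxylase, was higher there by 0.88 ± 0.13 (adjusted p = 0.00066) and was called in no salt comparison. ETFQO (AT2G43400), which passes electrons from amino acid breakdown to respiration, was the 1 gene lower with salt, at -0.44 ± 0.12 in Ws (adjusted p = 0.04) and -0.48 ± 0.12 in Col (adjusted p = 0.015), calls that ended in 9 and 4 alternatives. ETFQO, without replicate 1 of the salted group, was at -0.37 (adjusted p = 0.18) and -0.34 (adjusted p = 0.1), not called. IVD, MCCB and D2HGDH, also of amino acid breakdown, were called in no salt comparison and not in unsalted Col(gl) against unsalted Col.

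Of 12 components of the SnRK1 and TOR kinases 4 had a named probe set. Salt in Ws gave 1 higher and salt in Col 1 higher and 1 lower, Col(gl) salt 0 by limma, and unsalted Col(gl) against Col 1 higher and 2 lower. The shares over all probe sets were 9.16% higher and 7.45% lower in Ws, 16.4% and 21.1% in Col, 0.787% and 0.703% in Col(gl) salt, and 10.3% and 13.5% in unsalted Col(gl) against Col. AKINBETA1 (AT5G21170), a beta subunit of SnRK1, was the one that rose. It read 6.93 and 7.05 on unsalted Ws arrays, between 7.92 and 8.83 on the salted arrays of Ws and Col, 6.86 and 7.02 on unsalted Col arrays, and 9.32 and 9.28 on unsalted and 9.56 and 9.84 on salted Col(gl) arrays. All Col(gl) arrays were again above all others. It rose with salt by 1.42 ± 0.23 in Ws (limma, adjusted p = 0.0028) and 1.02 ± 0.23 in Col (adjusted p = 0.0066), each lost in 1 alternative, and exceeded unsalted Col by 2.36 ± 0.23 in unsalted Col(gl) (adjusted p = 4.5e-05). The rise in Ws was 1.00 without replicate 1 of salted Ws, the array low in plastid-encoded signal, and 1.84 without replicate 2. AT4G16360, another beta subunit, was lower in salted than in unsalted Col (-0.54 ± 0.13, adjusted p = 0.0092, ended in 1 alternative) and lower in unsalted Col(gl) than in unsalted Col (-0.85 ± 0.13, adjusted p = 0.00084). RAPTOR1 (AT3G08850), a partner of TOR, was also lower there (-0.36, adjusted p = 0.034, ended in 7 alternatives), and AT2G28060 was called in none.

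Of 10 genes typically raised by sugar 2 had a named probe set. Neither was called in Ws salt (median 0.84) or Col(gl) salt (median 0.19) by limma. In Col salt 1 was lower (median -0.93, 21.1% of all probe sets lower), and in unsalted Col(gl) against Col 2 were lower (median -1.80, 13.5% of all probe sets lower). In unsalted Ws against unsalted Col 1 was lower (median -2.68, 15.8% of all probe sets called in either direction). APL3 (AT4G39210), a subunit of the enzyme that makes ADP-glucose for starch, was lower in salted than in unsalted Col (-0.79 ± 0.22, limma, adjusted p = 0.018; -0.60 and adjusted p = 0.11 without replicate 1 of salted Col) and lower in unsalted Col(gl) than in unsalted Col (-1.65 ± 0.22, adjusted p = 0.00035). DFR (AT5G42800), an anthocyanin enzyme, was lower in the latter comparison (-1.95 ± 0.62, adjusted p = 0.048), a call that ended in 12 alternatives. On the Ws arrays DFR read 6.77 and 6.75 without salt and 9.74 and 7.08 with salt, again with replicate 1 higher. That difference of 1.65 ± 0.62 was not called (adjusted p = 0.1). It was 0.32 without replicate 1 of salted Ws (adjusted p = 0.22) and 2.98 without replicate 2, where it was called (adjusted p = 3.7e-06).

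**Figure D5:**
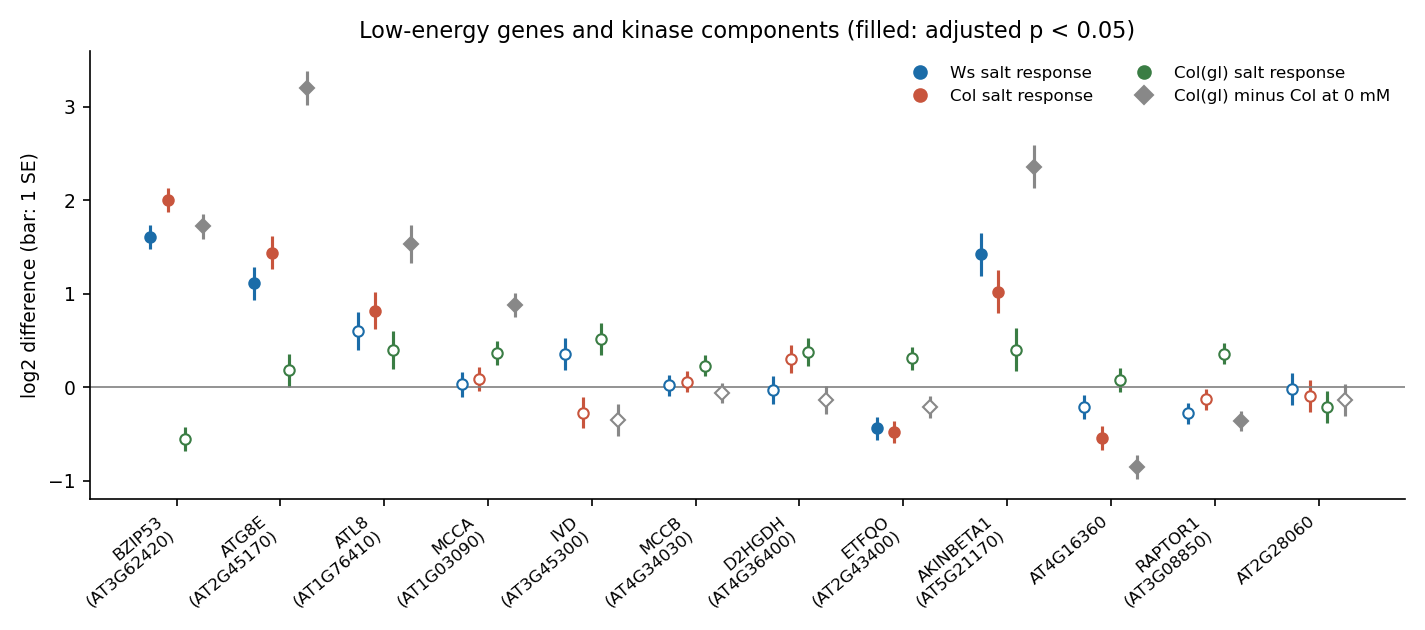
Fitted log2 differences (y axis, bars 1 SE) of the 8 measured low-energy genes and 4 measured kinase components (x axis) for the salt responses of Ws, Col and Col(gl) and for Col(gl) minus Col at 0 mM. Filled symbols passed an adjusted p of 0.05. BZIP53, ATG8E and AKINBETA1 have filled symbols above 0 for Ws salt, Col salt and unsalted Col(gl), while no Col(gl) salt response is filled.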

How the data were processed

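The deposited table gives each array's signal for every probe set as a log2 value, and it was used without further scaling. Per the submitters' processing notes, the authors used GCOS and RMA, and versions and settings are not given in the sources used here. RMA sets the probe intensities of all arrays to 1 distribution before they are summarized, so differences are relative to the other genes of an array. The deposited probe set values still differed in array median, from 6.15 to 6.38. The number of arrays limits the precision, and p-values measure the spread between samples the labels call biological replicates.

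Of 22810 probe sets, 64 controls were left out and 22746 tested. The probe table gave 1 gene for 13513, several for 503 and none for 8730, and 13436 of the first were matched to RefSeq symbols (TAIR10.1). Only probe sets with 1 gene are named. No sequences were used.

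All 12 arrays entered 1 limma fit per probe set (version 3.58.1, R 4.3.3), with the 6 group means as coefficients and eBayes moderation on 6 residual and 3.45 prior degrees of freedom. Two-sided p-values were corrected by the Benjamini-Hochberg method across the 22746 probe sets of each comparison, and an adjusted p under 0.05 counted as a call. The fit was tested on simulated data. Likeness is Pearson r over 12 arrays, and the 10 highest probe sets with 1 gene are named per gene. Of each list the text names called members and the largest and smallest differences, or, in lists of 7 or fewer, any measured member.

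A test of the Ws response minus the Col response was planned for both genes and is not reported, since it is made of differences that chose them. The 2 genes, the lists, the tests and 18 alternatives were chosen with earlier results of these data known, except the crossed replicate block, which was added later still. The alternatives were a block for replicate number, removal of the dimmest 25% of probe sets, quantile renormalization, a trended and robust prior, a fit of only the groups compared, replicate 1 of salted Ws and Col left out together, and each of the 12 arrays left out in turn, the lone array then being taken to vary as other groups do. Plots used Python 3.11.15 with matplotlib 3.10.9.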

Additional observations from a re-analysis of the deposited data

Results flagged for a closer look

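The salt difference of AT5G19120 was negative in Col(gl) and positive in Ws and Col on every array, giving a Col(gl) response minus the Col response of -4.37 ± 0.30 (log2, ± SE) and minus the Ws response of -4.01 ± 0.30. This difference was not tested, since the choice of the gene used the responses of Ws and Col. The small negative value in Col(gl) was itself not called.

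Responses of some genes related in family, position or function also differed between genotypes, by limma's test of the difference itself. Only flagged genes are named, and such differences were common. Of all 22746 probe sets, 7181 had an unadjusted p under 0.05 for the Col(gl) response minus the Col response. For Col(gl) minus Ws 4775 did, and for Ws minus Col 4477, where 4.66% were called. Against Col, the Col(gl) response was lower for BZIP53 (AT3G62420, -2.55, adjusted p = 3.4e-05), ATG8E (AT2G45170, -1.26, adjusted p = 0.0089) and AT3G15460 (-0.99, adjusted p = 0.015). It was higher for APL3 (AT4G39210, 1.12, adjusted p = 0.034), AILP1 (AT5G19140, 0.87, adjusted p = 0.031), IVD (AT3G45300, 0.80, adjusted p = 0.046), ETFQO (AT2G43400, 0.79, adjusted p = 0.015), AT3G15430 (0.75, adjusted p = 0.017) and AT4G16360 (0.63, adjusted p = 0.042). Against Ws, the Col(gl) response was lower for AT4G27450 (-2.30, adjusted p = 0.00056) and BZIP53 (-2.16, adjusted p = 0.00019). It was higher for ETFQO (0.75, adjusted p = 0.036), AT3G15430 (0.70, adjusted p = 0.045) and RAPTOR1 (AT3G08850, 0.64, adjusted p = 0.038). The Ws response exceeded the Col response for AT4G27450 (1.64, adjusted p = 0.006) and AILP1 (1.27, adjusted p = 0.016). Without replicate 1 of the salted group, the salt differences of AT4G27450 were 3.35 in Ws and 1.58 in Col. Those of AILP1 were 0.53 and -0.35. How far the response differences rest on the arrays low in plastid-encoded signal is not given here.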

How the results depend on the processing

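The 10 tests of AT3G15450 and AT5G19120 gave 180 values under the alternatives, of which 172 kept direction and call, 8 lost the call, 0 gained one and 0 reversed. Those of Ws against Col used only arrays that took part in the choice of the genes, and the others used some of these arrays. With only the groups compared, AT3G15450 in Ws minus Col at 100 mM (-0.99) and AT5G19120 in Col(gl) minus Ws at 100 mM (0.87) lost their calls. Without replicate 1 of salted Ws and Col together, the response difference of Ws minus Col in AT3G15450, which is given without a test, was -1.12, and the Ws salt difference of AT5G19120 was 4.21. Leaving out 1 array moved Col(gl) minus Col at 100 mM in AT5G19120 between 0.69 and 1.14, Col(gl) minus Ws at 100 mM between 0.60 and 1.15, and its Ws salt difference between 3.66 and 4.21. The cause was not tested. Fewer arrays give fewer degrees of freedom.

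Low-energy genes called lower with salt in Ws ranged from 0 to 1 and in Col from 0 to 2 when 1 array was left out. With only the groups compared, 1 gene was higher and 0 lower in Ws salt, 0 lower in Col salt, 1 lower in Col(gl) salt and 1 lower in unsalted Col(gl) against Col. Without replicate 1 of salted Ws and Col together, 0 were lower in Ws salt and 0 in Col salt, 1 was higher and 1 lower in Col(gl) salt, and 1 was lower in unsalted Col(gl) against Col.

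The replicate numbers carry no stated pairing, and deviations of same-numbered arrays correlated between groups from -0.352 to 0.697. With the replicate block every call of the 2 genes stayed, for example AT3G15450 in Ws minus Col at 100 mM at -0.99 (adjusted p = 0.011). With only the groups compared and crossed numbers as pairs, 3027 probe sets were called in Col(gl) salt and 7229 in Ws minus Col at 0 mM.

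Counts over all probe sets moved more. With only the groups compared, Ws salt had 865 calls instead of 3779, Col(gl) salt 1338 instead of 339, Ws minus Col 5972 instead of 3594 at 0 mM and 282 instead of 2896 at 100 mM. Col(gl) minus Col at 100 mM had 3597 instead of 5528, Col(gl) minus Ws at 100 mM 4193 instead of 7003, and the Ws minus Col response difference 265 instead of 1061. With replicate 1 of salted Ws and Col both left out the counts were 1987 in Col(gl) salt, 6448 in Ws minus Col at 0 mM and 2525 in the response difference. With 1 array left out, Ws salt had 1567 or 1874 calls without replicate 1 or 2 of unsalted Ws and 2488 or 5902 without those of salted Ws, and Col salt had 5263 without replicate 1 of unsalted Col. Col(gl) salt had 28 to 33 when any 1 Col(gl) array was left out, 167 to 175 without an unsalted Ws or Col array and 690 without a salted Ws array. Ws minus Col at 0 mM had 1643 to 2089 when any 1 unsalted Ws or Col array was left out. Col(gl) minus Col at 100 mM had 3165 without replicate 1 of salted Col and 2772 or 3112 without replicate 1 or 2 of salted Col(gl), and Col(gl) minus Ws 4656 without that replicate 1. The response difference had 386 to 488 without an unsalted Ws or Col array, 664 to 683 without a Col(gl) array and 2169 without replicate 1 of salted Ws.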
